A study of Mus musculus with 3 samples.

Results

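The cytosolic ribosomal protein genes of mouse colon leukocytes were described in 3 single-cell libraries. Members were all genes whose symbol starts with Rpl or Rps followed by a digit, with Rplp0, Rplp1, Rplp2 and Rpsa added and the Rps6k kinases and symbols carrying -ps left out. This gave 86 of the 30905 genes in the files, 52 with Rpl symbols (large subunit) and 34 with Rps symbols (small subunit). The cells were sorted on CD45, the pan-leukocyte surface protein, from colons of C57BL/6 mice whose model was built at 6 to 8 weeks of age. Library T1 was made from colon tissue graded as low-grade intraepithelial neoplasia, a precancerous change of the epithelium, and library T3 from tissue graded as high-grade. Both followed 12 mg/kg azoxymethane, a carcinogen, given once into the peritoneum, and then 3 cycles of 7 days of 2.5% dextran sodium sulfate, which injures the colon lining, each with 14 days of water. Library C came from the colon of healthy mice. Each group was 1 library, and the labels do not say how many mice went into it.

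Ribosomal proteins are structural proteins that assemble with ribosomal RNA into the small subunit, which decodes the messenger RNA, and the large subunit, which joins amino acids. Most of their messenger RNAs begin with a cytosine followed by a run of pyrimidines, the terminal oligopyrimidine motif, through which the mTOR pathway and the RNA-binding protein LARP1 control their translation and stability. Lymphocytes carry large amounts of these messages: resting naive T cells are known to store them, and plasma cells devote much of their messenger RNA to immunoglobulins.

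After barcodes with fewer than 200 genes or over 20% mitochondrial UMIs (unique molecular identifiers, 1 per captured molecule) were left out, 6004 barcodes remained of 7903 in C, 6143 of 8566 in T1 and 4543 of 5779 in T3. The median depth was 4933, 5272 and 1803 UMIs per barcode in C, T1 and T3, so T3 was the shallowest. T3 also stood apart in red-cell RNA: 54.9% of its barcodes held over 1 haemoglobin UMI, against 0.633% in C and 0.260% in T1. Libraries shared 35 to 39 barcode sequences. The mice are labelled male, yet the libraries held 51332, 50449 and 23366 UMIs of Xist in C, T1 and T3 and 0 UMIs of the Y-linked gene Ddx3y, which goes against that label in all 3. With 1 library a group there is no replicate check between C, T1 and T3. Intervals given are 95% exact intervals that cover counting error only.

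The members together made up 30.8%, 33.3% and 34.9% of all UMIs in C, T1 and T3. Levels are UMIs of a gene per 1000000 UMIs of the library or lineage (CPM), which a 3′ assay gives without division by length. The abundant end was spread over many members: the top 5 members held 13.4% of all ribosomal protein UMIs and the top 10 held 23.2%, and the highest member stood 1.64-fold over the tenth. Of the 86 members, 77 averaged over 1000 CPM over the 3 libraries. Rps27, a zinc-finger protein of the small subunit, had 8801, 8923 and 13117 CPM in C, T1 and T3. Rps24, a small subunit protein mutated in Diamond-Blackfan anaemia in humans, had 9420, 10075 and 11277 CPM. Rps29, another small subunit zinc-finger protein, had 8093, 7977 and 10954 CPM. Rplp1 followed with 6857, 7292 and 8911 CPM, and Rpl13 with 6612, 7128 and 6900 CPM. Of these 5, Rpl13 alone was not highest in T3, and Rps27 had the widest range of levels.

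The stalk proteins Rplp0, Rplp1 and Rplp2 form the flexible arm of the large subunit that recruits elongation factors. Rplp0 had 4130, 4566 and 4875 CPM and Rplp2 had 3900, 4059 and 4883 CPM in C, T1 and T3. Rpsa, a small subunit protein also known as the laminin receptor, had 5188, 5637 and 5682 CPM. In these sums of all barcodes, all 4 were lowest in C and highest in T3, as was the summed share of the family. Not every lineage gated below kept this order. In B cells Rplp0 had 3901, 4234 and 3511 CPM and Rpsa 5258, 5762 and 5070 CPM in C, T1 and T3. Rplp0 in Trdc cells, at 4091, 4395 and 4798 CPM, kept it.

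The paralogue forms spanned a wide range of levels. Rpl22l1, the paralogue of Rpl22, reached 1030, 1073 and 1025 CPM in C, T1 and T3, against 2216, 2444 and 2196 CPM for Rpl22 itself. Rpl36al had 728, 783 and 688 CPM beside 2063, 2186 and 2482 CPM of Rpl36a. Rps27l, a small subunit paralogue induced by p53, had 101, 94.9 and 55.3 CPM. Rpl7l1, the paralogue of Rpl7, had 56.6, 51.8 and 40.1 CPM. Rps19bp1, which the symbol rule takes in but which encodes a protein that binds Rps19 and is not a subunit of the ribosome, had 25.6, 22.0 and 15.1 CPM. These 3 rare members were lowest in T3. Rpl39l and Rpl3l had 53 and 8 UMIs over the 3 libraries. Rpl10l, known from testis, had 0 UMIs in each library.

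The start sites of Rps27 and its copy Rps27rt, and of 4 other members named in the results, are shown because a run of pyrimidines at the start is the regulatory feature of this family. All but Rps28 were picked among the members with a match, and Rps28 is shown as a member without one. Each line runs 5′ to 3′ on the gene's strand, from 10 bases before to 20 bases from a RefSeq start in GRCm38.p6, with any match to a pentamer in capitals. The pentamers searched, which can overlap, were CTTTC, then also CTTTT, and finally CCTTT.
Rps27 (chr3:90213629-90213658, minus strand): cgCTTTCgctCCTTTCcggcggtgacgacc
Rps27rt (chr9:114982720-114982749, minus strand): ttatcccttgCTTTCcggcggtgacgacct
Rpl13a (chr7:45128726-45128755, minus strand): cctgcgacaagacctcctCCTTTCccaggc
Rpl38 (chr11:114668570-114668599, plus strand): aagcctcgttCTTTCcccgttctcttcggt
Rpl35 (chr2:39005112-39005141, minus strand): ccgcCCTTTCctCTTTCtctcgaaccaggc
Rps28 (chr17:33824543-33824572, minus strand): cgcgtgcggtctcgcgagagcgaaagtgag

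One of these pentamers lay in this window in 19 of the 66 members that had a start in the RefSeq table, which is 28.8%, against 9.16% of 26959 other genes. On the other strand the shares were 6.06% for members and 8.92% for other genes. The pentamers and the window were chosen after a few starts had been read, and a match is a description of letters, not of a regulated site. Rps27rt lies on chromosome 9 (114982366 to 114982739, GRCm38, annotated as protein coding) and its coding sequence is identical to that of Rps27 over all 252 bases. Rps27 itself lies on chromosome 3 (90212522 to 90213651). Rps27rt had 562, 694 and 673 CPM in C, T1 and T3, and reads of the 2 genes cannot be told apart with certainty. The other paralogue forms differ more: Rps27l is 76.2% identical to Rps27 in coding sequence, Rpl36al 87.7% to Rpl36a and Rpl22l1 66.9% to Rpl22.

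Lineages were gated on marker UMIs, with no ribosomal protein gene used. B cells (markers including Cd79a, Cd79b, Ms4a1 and Pax5) numbered 2984, 3141 and 922 in C, T1 and T3. T cells with Cd4 numbered 420, 872 and 582, those with Cd8b1 348, 325 and 423, and those with Trdc, the delta chain of the gamma-delta T-cell receptor, 318, 111 and 56. Plasma cells numbered 54, 42 and 2, and myeloid cells 31, 23 and 65. Of the markers of other lineages, the 6 T markers summed to 62.2, 52.5 and 97.0 CPM in B cells of C, T1 and T3. Cd3e among them reached at most 7.34 CPM. The 5 B markers summed to 74.0, 112 and 57.5 CPM in Trdc cells, with Cd79a at most 41.3 CPM. In Cd4 and Cd8b1 cells the B markers summed to 34.4 to 95.9 CPM. Some other marker lists ran higher: the 7 plasma markers summed to 3134, 1129 and 357 CPM in B cells of C, T1 and T3. In Cd4 cells they summed to 895, 895 and 81.3 CPM. Mast-cell markers summed to 667 CPM in Trdc cells and 338 CPM in Cd4 cells of C. In T1 these sums were 1.38 and 1.18 CPM, and in T3 4.43 and 3.20 CPM. The neutrophil gene S100a8 ran at 0 to 0.736 CPM in B, Cd4, Cd8b1 and Trdc cells of C and T1 and at 19.6 to 93.0 CPM in those of T3. Haemoglobin genes reached 3644 CPM in Cd8b1 cells and 2811 CPM in Trdc cells of T3, and under 12 CPM in the 4 lymphocyte gates of C and T1.

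Ribosomal protein share differed between lineages and between libraries. In Cd8b1 cells the members held 35.7%, 42.9% and 43.3% of all UMIs in C, T1 and T3, the highest of the 6 lineages in each library by summed UMIs. In Cd4 cells they held 32.9%, 30.8% and 36.6%, in B cells 32.2%, 35.3% and 31.8%, and in Trdc cells 30.0%, 31.2% and 35.4%. Cd4 cells were the only lymphocyte gate with its lowest value in T1, and B cells the only one with its highest value there. Counting intervals were narrow, 35.2% to 35.6% in the smallest of these sums, the Trdc cells of T3, but cells differed widely: the quartiles over Cd8b1 cells of C were 27.4% and 43.3%. In these bulk sums, a share cannot tell more ribosomal protein RNA per cell from less of other RNA.

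**Figure D1:**
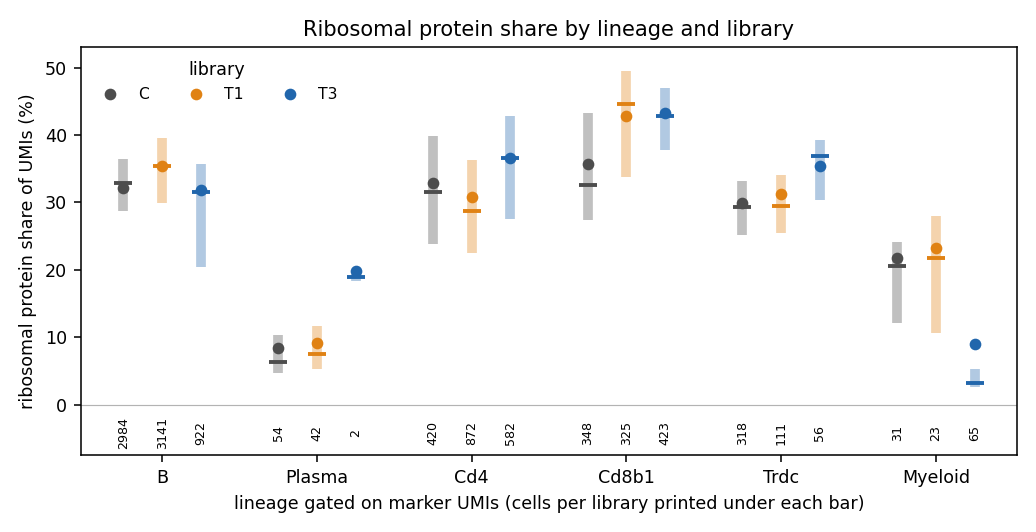
Share of UMIs from ribosomal protein genes (y axis, %) in 6 lineages and the libraries C, T1 and T3. Points are the share of summed UMIs, horizontal ticks the median over cells and bars the quartiles over cells; Cd8b1 cells sit highest, and plasma cells of C and T1 sit at 8.42% and 9.12%.

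Plasma cells had the lowest share of the lymphoid gates, 8.42% in C (interval 8.38% to 8.47%) and 9.12% in T1 (9.06% to 9.18%). The 2 plasma cells of T3 stood at 17.9% and 19.9%. Immunoglobulin genes took 595922 CPM in plasma cells of C and 607298 CPM in those of T1. Jchain, which the plasma gate asks for, was counted among the immunoglobulin genes here and wherever their UMIs were left out. With mitochondrial, haemoglobin and immunoglobulin UMIs left out of the denominator, the plasma share was 22.6% in C and 24.98% in T1. Myeloid cells held 21.8%, 23.2% and 9.01% in C, T1 and T3. Cells with at least 20 UMIs of the neutrophil markers numbered 5, 4 and 55 in C, T1 and T3, and their share was 3.81%, 5.30% and 5.43%. The other myeloid cells, 26, 19 and 10 of them, stood at 22.5%, 24.4% and 16.7%. Neutrophil-marker cells were low in share in all 3 libraries and most numerous in T3; their part in the myeloid value of T3 beyond these figures was not tested.

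The share moved with the depth of the barcode. In B cells of 500 to 1000 UMIs the mean over barcodes was 17.1% ± 9.59, 13.5% ± 9.12 and 11.3% ± 7.34 in C, T1 and T3 (SD over 69, 77 and 117 barcodes). At 4000 to 8000 UMIs it was 34.1% ± 4.87, 36.8% ± 5.31 and 34.1% ± 5.36 (SD over 1852, 1990 and 366 barcodes). Above 16000 UMIs it was lower again, 25.5% ± 10.6 in C and 29.0% ± 10.8 in T1. Across B cells, Spearman's rho between share and total UMIs was 0.35 in C (2984 cells), 0.51 in T1 (3141) and 0.60 in T3 (922); total UMIs are the denominator of the share. Barcodes under 10% ribosomal protein made up 3.82%, 5.19% and 16.2% of B cells in C, T1 and T3.

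**Figure D2:**
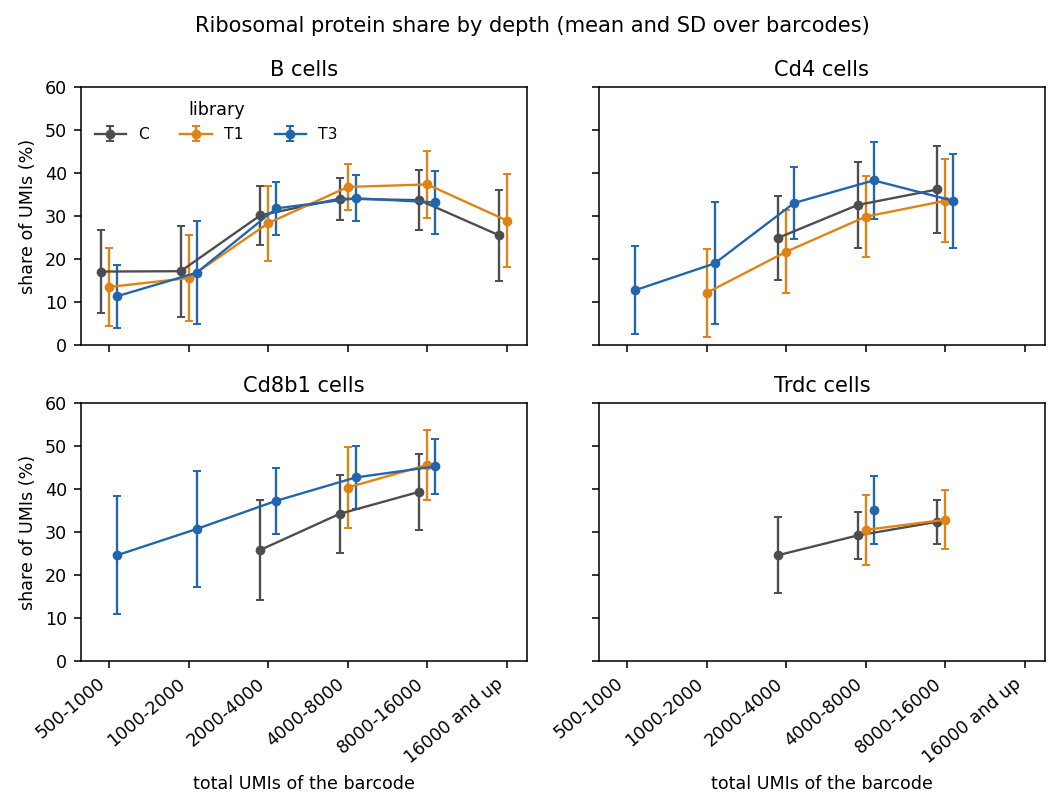
Mean share of UMIs from ribosomal protein genes (y axis, %; error bars are the SD over barcodes) by total UMIs of the barcode (x axis) in 4 lineages; bins under 20 barcodes are not drawn. In B cells of 4000 to 8000 UMIs the libraries C, T1 and T3 lie at 34.1%, 36.8% and 34.1%, and in Cd8b1 cells of 4000 to 8000 UMIs C lies at 34.3%, under T1 at 40.4% and T3 at 42.7%.

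Shallow barcodes of T3 differed by haemoglobin. Those of 500 to 1000 UMIs with over 1 haemoglobin UMI had a share of 27.1% (751 barcodes), and those with 0 or 1 had 11.2% (447 barcodes). Barcodes of that depth with 0 or 1 haemoglobin UMI stood at 12.7% in C and 11.2% in T1. At 4000 to 8000 UMIs the 2 kinds of T3 barcode stood at 38.4% (554 barcodes) and 37.8% (785 barcodes).

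Because depth differed, libraries were also compared within depth bins, with the mean difference of the bins weighted equally. In Cd8b1 cells the share was 6.20 percentage points higher in T1 than in C (2 bins) and 8.61 points higher in T3 than in C (3 bins, 5.91 to 11.4). In Cd4 cells T1 minus C was -2.87 points, with all 3 bins between -3.24 and -2.64, and T3 minus C was 3.73 points, with bins from -2.64 to 8.11. In Trdc cells the differences were 0.88 points for T1 over C (2 bins) and 5.86 points for T3 over C (1 bin). In B cells they were 0.47 points for T1 minus C, with bins from -3.58 to 3.67, and -0.98 points for T3 minus C, with bins from -5.74 to 1.63. The B-cell values thus differ in sign between depths, and both change sign under other filters or weights: T1 minus C was -0.12 points without the top 1% of barcodes by UMIs, and T3 minus C was 1.04 points with no mitochondrial filter and 0.08 points with bins weighted by their barcodes. Depth and group cannot be told apart in T3 where bins hold few barcodes.

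In T cells the share moved with naive markers. Ccr7, a chemokine receptor that guides cells to lymph nodes, and Lef1, a transcription factor of naive T cells, were summed per barcode after the shares had been seen. Among Cd8b1 barcodes of 4000 to 8000 UMIs, those with at least 2 such UMIs had a share of 42.5%, 46.4% and 43.9% in C, T1 and T3 (83, 93 and 181 barcodes). Those with none had 29.02%, 30.1% and 34.4% (121, 45 and 8 barcodes, so the T3 value rests on few). In Cd4 barcodes the values were 39.2%, 37.6% and 41.2% with the markers (124, 175 and 257 barcodes) and 26.96%, 25.5% and 30.1% without them (112, 265 and 54 barcodes). The gap between marker-positive and marker-negative barcodes of 1 library was wider than any gap between libraries within a kind.

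**Figure D3:**
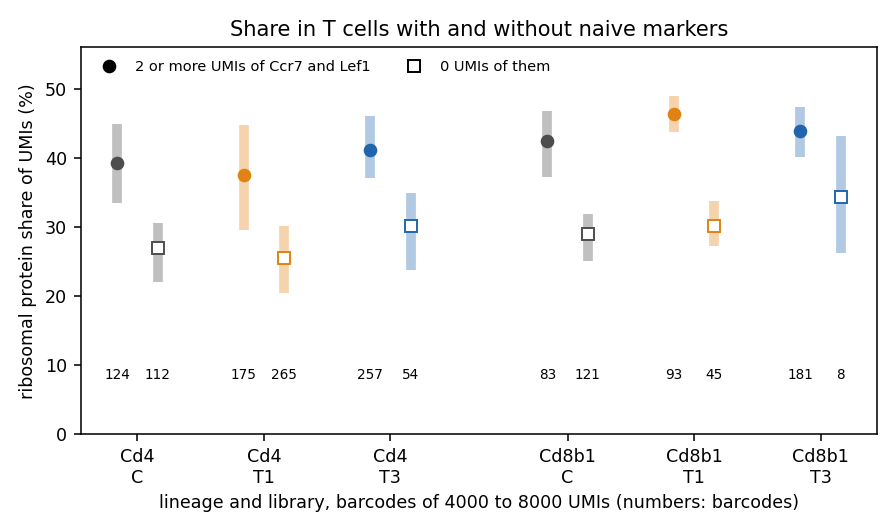
Share of UMIs from ribosomal protein genes (y axis, %) in Cd4 and Cd8b1 barcodes of 4000 to 8000 UMIs, for each library. Filled circles are barcodes with at least 2 UMIs of Ccr7 and Lef1, open squares those with 0, bars the quartiles over barcodes; every filled circle, 37.6% to 46.4%, lies above every open square, 25.5% to 34.4%.

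The libraries held different numbers of the 2 kinds. Barcodes with at least 2 naive-marker UMIs made up 35.5%, 58.9% and 86.2% of these Cd8b1 barcodes in C, T1 and T3, and 42.9%, 31.8% and 71.4% of the Cd4 barcodes. The order of the libraries by this percentage was the same as their order by share in both lineages. At all depths, Cd4 barcodes with the markers had a share of 39.2%, 37.5% and 39.7% in C, T1 and T3, and Cd8b1 barcodes with them 42.5%, 47.04% and 44.1%. Among all Cd4 cells T3 minus C was 3.68 points, and among all Cd8b1 cells 7.62 points. The part of naive-marker cells in the library differences beyond these values was not tested.

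Single members were compared between libraries by a rule of size: at least 1.5-fold apart, at least 100 UMIs over both libraries, and a counting interval that excludes no difference. In T1 against C no member passed in B, Cd4 or Cd8b1 cells, where 82 or 83 members had enough UMIs. The rule took 1.58% of all genes as higher and 6.05% as lower in B cells, 6.23% and 2.70% in Cd4 cells, and 2.07% and 11.8% in Cd8b1 cells. The members moved together by small steps instead: the median log2 ratio of T1 to C was 0.14 in B cells (80 of 83 members above 0), -0.07 in Cd4 cells (13 of 83 above 0) and 0.27 in Cd8b1 cells (80 of 82 above 0). Over all genes the medians were -0.10, 0.04 and -0.19. Shares sum to a fixed total, so a higher share of a family this large goes with lower shares elsewhere. In Trdc cells 1 member passed, Rpl7l1, with 28.9 CPM in T1 and 55.3 CPM in C (21 and 112 UMIs), where 2.54% of all genes were higher and 3.54% lower.

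In T3 against C, Cd8b1 cells had the most members past the rule, 2 higher and 1 lower of 82, beside 9.05% and 18.8% of all genes. Rps27 had 15379 CPM in T3 and 9536 CPM in C, a log2 ratio of 0.69 (interval 0.67 to 0.71). Rps28, another small subunit protein, had 5983 CPM in T3 and 3851 CPM in C, a log2 ratio of 0.64 (0.60 to 0.67). Rpl7l1 had 31.5 CPM in T3 and 54.0 CPM in C (80 and 125 UMIs). In Trdc cells Rps27 alone passed, with 12261 CPM in T3 and 7409 CPM in C, where 9.41% of all genes were higher and 18.2% lower. These counts moved with the scaling and the barcodes used: with TMM factors 9 members passed in Cd8b1 cells, 8 in Trdc cells and 2 in Cd4 cells. Among barcodes with at least 2 naive-marker UMIs 0 passed in Cd8b1 cells, where Rps27 had a log2 ratio of 0.46 and Rps28 of 0.33, and without barcodes of over 1 haemoglobin UMI 0 passed in Trdc cells.

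In B cells 1 of 83 members passed for T3 against C, where 16.5% of all genes were higher and 11.0% lower. Rps27l had 56.3 CPM in T3 and 104 CPM in C (184 and 1668 UMIs), a log2 ratio of -0.89 (-1.12 to -0.67). Rpl13a, a large subunit protein, had 1132 CPM in T3 and 816 CPM in C, a log2 ratio of 0.47. Rps27 had 13541 CPM in T3 and 10114 CPM in C, a log2 ratio of 0.42. Rpl28 had 2975 CPM in T3 and 3592 CPM in C, a log2 ratio of -0.27. In Cd4 cells none of 82 members passed, where 12.3% and 12.6% of all genes did. The nearest were Rpl13a, 1410 CPM in T3 and 946 CPM in C, Rps27, 13330 and 9037 CPM, and Rps28, 4932 and 3424 CPM, with log2 ratios of 0.58, 0.56 and 0.53. The lower end of the Cd4 cells held Rps27l (-0.39), Rpl7l1 (-0.36), Rpl7a and Rps2.

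In T3 against T1, Cd4 cells had the most members past the rule, 4 higher and 2 lower of 83, beside 9.68% and 16.7% of all genes. Rps27 had 13330 CPM in T3 and 7684 CPM in T1, a log2 ratio of 0.79. Rps28 had 4932 and 2913 CPM, Rps29 11789 and 7136 CPM, and Rpl35, a large subunit protein at the exit tunnel, 3235 and 2031 CPM, with log2 ratios of 0.76, 0.72 and 0.67. The lower 2 were Rps19bp1 (11.4 and 20.2 CPM; 32 and 120 UMIs) and Rps27l (51.8 and 88.0 CPM). Rps27 and Rps29 were also past the rule in Trdc cells, where 11.1% of all genes were higher and 17.1% were lower, and Rps27l was lower in B cells, where 17.1% of all genes were higher and 3.96% lower. No member passed in Cd8b1 cells, where 12.7% of all genes were higher and 6.47% lower. In Cd4 barcodes with at least 2 naive-marker UMIs, 1 member was higher and 1 lower for T3 against T1: Rps27 with a log2 ratio of 0.65 and Rps27l with -1.04.

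Dividing by the ribosomal protein UMIs in place of all UMIs removes the change of the whole family and leaves its makeup. On this scale no member was higher past the rule in any of the 12 comparisons. The division centres the members near 0 and shifts all other genes by the change of the family. In Cd8b1 cells for T3 against C, the median log2 ratio was -0.04 for members and -0.40 over all genes. The percentages of all genes below include that shift and are not a background for the makeup. In B cells 1 member, Rps27l, was lower in T3 against C. The rule took 0.822% of all genes as higher and 10.9% as lower for T1 against C, 17.4% and 10.5% for T3 against C, and 26.9% and 2.19% for T3 against T1. In Cd4 cells Rps19bp1, Rps27l and Rpl7l1 were lower in T3 against T1, with 4.0% and 32.0% of all genes, and no member passed for T1 against C (8.79% and 1.75%) or T3 against C (7.09% and 20.9%). In Cd8b1 cells Rpl7l1 was lower in T1 against C (0.829% and 33.5%), Rpl7l1 and Rps27l in T3 against C (3.55% and 36.2%) and none in T3 against T1 (12.1% and 6.79%). In Trdc cells Rpl7l1 and Rps27l were lower in T1 against C (1.93% and 5.11%), Rpl7l1 in T3 against C (5.93% and 30.0%) and none in T3 against T1 (5.58% and 26.2%). Rps27l, Rpl7l1 and Rps19bp1 were the only members past the rule on this scale. Rps27 had the highest log2 ratio of T3 to C in Cd8b1 and Trdc cells and the next highest after Rpl13a in B and Cd4 cells, at 0.44 in B, 0.41 in Cd4, 0.41 in Cd8b1 and 0.49 in Trdc cells. Rps28 had 0.21, 0.37, 0.36 and 0.32 in the same order, Rps29 had 0.21, 0.24, 0.25 and 0.28, and Rpl13a had 0.49, 0.42, 0.20 and 0.30. Rpl3, of the large subunit, had -0.21, -0.24, -0.31 and -0.38. In T1 against C, Rps27, Rps28, Rps29 and Rpl13a lay between -0.23 and 0.23.

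**Figure D4:**
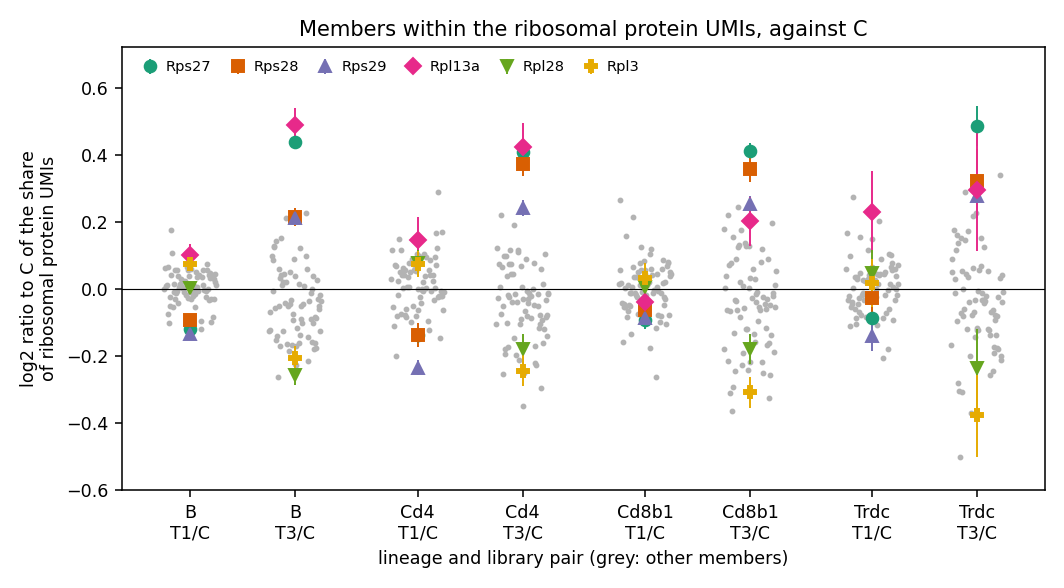
Log2 ratio to C of each member's share of the ribosomal protein UMIs (y axis) for T1 and T3 in 4 lineages; 6 members are drawn in colour with their counting intervals and the other members over 1000 CPM of ribosomal protein UMIs in grey. Rps27, Rps28, Rps29 and Rpl13a lie above 0 in T3 in every lineage, with Rps27 between 0.41 and 0.49.

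The balance of the subunits was lower in T3. The ratio of large to small subunit UMIs in C, T1 and T3 was 1.11, 1.12 and 1.08 in B cells, 1.13, 1.17 and 1.07 in Cd4 cells, 1.14, 1.13 and 1.07 in Cd8b1 cells, and 1.19, 1.19 and 1.10 in Trdc cells. Library T3 also differed from C by transcript length over all other genes: Spearman's rho between log2 ratio and annotated transcript length was 0.55, 0.56, 0.50 and 0.41 in B, Cd4, Cd8b1 and Trdc cells (7951, 5023, 4380 and 2643 genes). Among the members it was -0.31, -0.19, -0.08 and -0.14 for transcript length (82 or 83 members). For coding length it was 0.51, 0.53, 0.47 and 0.38 in other genes and -0.48, -0.43, -0.30 and -0.36 among members. For T1 against C the values for transcript length ran from 0.04 to 0.22 in other genes and from -0.06 to 0.25 among members, and those for coding length from -0.01 to 0.18 and from 0.02 to 0.28. Genes of 1 library are not independent, and the part of length in the T3 values was not tested.

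Other lists, of genes that make or regulate ribosomes, were chosen when earlier results of these data were known. Here rose and fell stand for past the rule of size. Of 18 other translation genes with pyrimidine starts, 1 rose in T3 against C in Cd4 cells and 1 in Cd8b1 cells. Over all genes 12.3% and 9.05% rose there. None passed in B or Trdc cells of that comparison, where 16.5% and 9.41% of all genes rose and 11.0% and 18.2% fell. None passed in T1 against C in any of the 4 lineages. In that comparison 1.58% and 6.05% of all genes rose and fell in B cells and 6.23% and 2.70% in Cd4 cells. In Cd8b1 cells it was 2.07% and 11.8%, and in Trdc cells 2.54% and 3.54%. Of the ribosome biogenesis genes in T3 against C, 1 of 24 rose in B cells and none fell, beside 16.5% and 11.0% of all genes: Polr1a, the largest subunit of RNA polymerase I, had 29.1 CPM in T3 and 14.2 CPM in C. In Cd4 cells 3 rose and 1 fell of 22, beside 12.3% and 12.6%. None of 21 passed in Cd8b1 cells, beside 9.05% and 18.8%, and 1 rose and 1 fell of 12 in Trdc cells, beside 9.41% and 18.2%. Mitochondrial ribosomal proteins, which build a separate ribosome, were lower in T3 against C. In B cells 28 of 77 fell beside 11.0% of all genes, in Cd4 cells 22 of 60 beside 12.6%, in Cd8b1 cells 21 of 59 beside 18.8% and in Trdc cells 9 of 39 beside 18.2%, and none rose in these 4. Their median log2 ratios were -0.48, -0.51, -0.49 and -0.65, against 0.06, -0.02, -0.12 and -0.16 over all genes. Mrpl40, for example, had 12.5 CPM in T3 and 28.2 CPM in C in B cells and 13.1 and 26.5 CPM in Cd4 cells. Of the growth control genes, in T3 against C 1 rose and 1 fell of 14 in B cells (Tsc1 and Eif4ebp1), 1 rose of 7 in Cd4 cells (Larp1), 1 rose of 8 in Cd8b1 cells (Myc) and none passed of 6 in Trdc cells, beside the same percentages of all genes. In T1 against C 1 fell of 15 in B cells (Tsc2) and 1 of 12 in Cd4 cells (Myc). Of 7 in Cd8b1 cells 1 fell (Mxd4), and none passed of 6 in Trdc cells. Over all genes 6.05%, 2.70%, 11.8% and 3.54% fell in these 4 lineages in turn. Myc, a transcription factor that drives ribosome production, had 112, 79.3 and 144 CPM in B cells, 31.7, 17.8 and 32.3 CPM in Cd4 cells and 42.3, 40.5 and 63.7 CPM in Cd8b1 cells of C, T1 and T3. It was past the rule for T1 against C in Cd4 cells, for T3 against C in Cd8b1 cells and for T3 against T1 in all 3, and not in the other comparisons of these lineages.

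Lineages were compared over the 3 libraries with edgeR's quasi-likelihood test, with library as a block and Benjamini-Hochberg adjustment over all genes. Trdc cells had lower levels than Cd8b1 cells: 74 of 83 members were lower and none higher, beside 2.93% and 3.05% of all genes. The median log2 fold change of the members was -0.56, against -0.01 over all genes. These folds include TMM scaling; with library sizes alone the members' median was -0.30 and 50 were lower. Share within Cd8b1 cells moved with naive markers: at 4000 to 8000 UMIs the summed share was 29.4%, 30.9% and 35.4% in Trdc barcodes of C, T1 and T3, against 34.7%, 40.9% and 43.2% in all Cd8b1 barcodes and 29.02%, 30.1% and 34.4% in those with 0 naive-marker UMIs. The part of naive-marker cells in this contrast of single members was not tested. Rps19, the small subunit protein most often mutated in Diamond-Blackfan anaemia in humans, had 3683, 3751 and 5506 CPM in Trdc cells and 5456, 6883 and 7593 CPM in Cd8b1 cells of C, T1 and T3, a log2 fold change of -0.90 (SE 0.13, adjusted p = 0.0001073 by edgeR). Each Trdc value lay below the Cd8b1 value of its own library. Rplp0 had 4091, 4395 and 4798 CPM in Trdc cells and 5390, 6963 and 6682 CPM in Cd8b1 cells, a log2 fold change of -0.77 (SE 0.12, adjusted p = 0.0003635 by edgeR), and here the Trdc and Cd8b1 values did not overlap. Rps20, Rpl12 and Rplp1 completed the 5 lowest, at -0.77, -0.75 and -0.72. Rpsa (-0.70), Rps27 (-0.68) and Rplp2 (-0.61) were also lower.

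The 9 members not past the threshold in that contrast included Rps19bp1, Rps27l, Rpl31, Rpl38, Rpl27, Rpl41, Rpl7l1 and Rpl22l1, of which 4 are paralogue or rare forms. By CPM, before TMM scaling, Rps27l had 85.9, 59.2 and 66.4 CPM in Trdc cells and 71.7, 57.8 and 52.3 CPM in Cd8b1 cells, higher in Trdc cells of all 3 libraries. The T1 values lay close together, and the T3 value of Trdc cells rests on 56 cells. With TMM scaling the log2 fold change of Rps27l was -0.04 (SE 0.17, adjusted p = 0.9804 by edgeR). Of 18 other translation genes with pyrimidine starts 9 were lower and none higher, among them Eef1b2 (-0.77), Npm1 (-0.68) and Tpt1 (-0.66), while none of 25 biogenesis genes and none of 77 mitochondrial ribosomal proteins passed. Without the library block no member passed in edgeR although 76 had an unadjusted p under 0.05, and DESeq2 with the block called 33. Leaving out C, T1 or T3 left 23, 60 or 37 members lower.

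**Figure D5:**
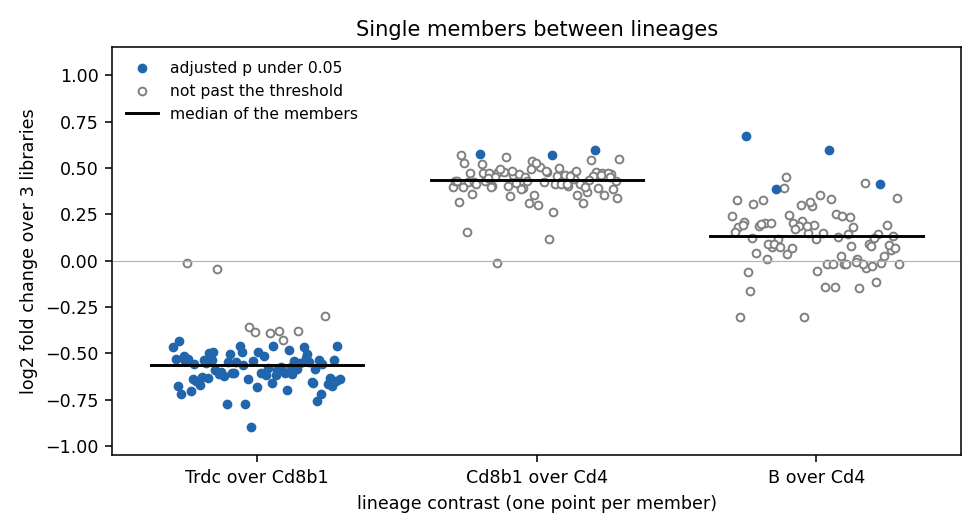
Log2 fold change of each member (y axis) for 3 lineage contrasts over the 3 libraries, Trdc over Cd8b1, Cd8b1 over Cd4 and B over Cd4; filled points have an adjusted p under 0.05, lines are medians. All but 9 of 83 members are filled in the Trdc contrast, at a median of -0.56, and 3 in the Cd8b1 contrast, at a median of 0.44.

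Between Cd8b1 and Cd4 cells the members leaned the other way, with a median log2 fold change of 0.44 and Rps27l alone below 0 (-0.01), yet 3 passed as higher and none as lower, beside 3.74% and 6.69% of all genes; 78 had an unadjusted p under 0.05. Rps18 had 6228, 7687 and 7277 CPM in Cd8b1 cells and 5299, 4890 and 5577 CPM in Cd4 cells of C, T1 and T3, with a log2 fold change of 0.60 (SE 0.16, adjusted p = 0.04242 by edgeR). Rpl36a had a log2 fold change of 0.57 (SE 0.15, adjusted p = 0.04105 by edgeR). The Rps18 values of the 2 lineages did not overlap, and those of Rpl36a did. This count ran from 0 to 69 members over the alternatives tried, and that of Trdc against Cd8b1 cells from 0 to 78: here it was 0 without T1, 0 without T3 and 7 without C, with 40, 4 and 75 members at an unadjusted p under 0.05, and 21 in DESeq2. Of the biogenesis genes 6 of 25 rose and none fell, among them Dkc1 (0.94) and Nhp2 (0.89), which belong to the snoRNP that modifies ribosomal RNA. Myc rose as well (1.05, adjusted p = 0.005685 by edgeR).

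B cells against Cd4 cells gave 4 members higher and none lower of 83, with 5 at an unadjusted p under 0.05, beside 22.7% and 23.8% of all genes. All 4 are paralogue forms or the rare binding protein. Rps19bp1 had 28.7, 25.2 and 23.6 CPM in B cells and 21.3, 20.2 and 11.4 CPM in Cd4 cells of C, T1 and T3 (log2 fold change 0.67, SE 0.15, adjusted p = 0.005002 by edgeR), with no overlap. Rpl7l1 had 62.7, 59.8 and 55.7 CPM in B cells and 46.0, 47.4 and 35.9 CPM in Cd4 cells (0.59, SE 0.10, adjusted p = 0.001283 by edgeR), with no overlap. Rps27rt (0.41, adjusted p = 0.0413 by edgeR) and Rps27l (0.39, adjusted p = 0.03597 by edgeR) overlapped between the lineages. The median of all 83 members was 0.13, 0.0067 with library sizes alone, where 2 members were higher and 2 lower, and -0.02 without T1. Leaving out C or T1 left 2 members past the threshold, and leaving out T3 gave 10, 9 higher and 1 lower. Biogenesis genes rose in 12 of 25, led by Gnl3, a nucleolar GTP-binding protein (1.32), and Myc rose (2.18).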

How the data were processed

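Cells were profiled with the 10x Genomics 3′ version 3.1 kit, and the authors deposited gene-by-barcode matrices of UMI counts, 1 per library, per the labels and the file headers. The submitters' processing notes name GRCm38 as build and, as tools with no role given, Seurat 3.1.4, Cell Ranger 3.1.0 and CASAVA 1.8. Free RNA in droplets was not subtracted here. Nothing was stated about doublets, and no doublet caller was run. A barcode with B and T markers, neither 3 times the other, was in neither the B nor a T gate. One with fewer marker UMIs of another lineage, or with neutrophil markers, could stay in a B or T gate. The top 1% by UMIs was left out in an alternative.

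Barcodes with under 200 genes or over 20% mitochondrial UMIs were dropped. B and T gates asked for at least 3 marker UMIs, and 3 times those of each other and of the mononuclear markers. Neutrophil markers were not held against these gates. Plasma cells asked for 20 Jchain UMIs and 3 each of Mzb1 and Xbp1, and myeloid cells for 5 mononuclear or 20 neutrophil marker UMIs. UMIs were summed per library and lineage. Shares have Clopper-Pearson intervals and ratios exact conditional intervals (95%). The alternative DESeq2 fit used version 1.42.0. Lineages were tested with edgeR 4.0.16 (R 4.3.3), TMM and filterByExpr, and genes at an adjusted p under 0.05 were called. The sums of 2 lineages of 1 library share that library, which was a block in the fit. The p-values measure only how far the lineage difference within a library varied over the 3 libraries. These were of 3 different groups and not replicates of 1 group. Both the rule of size and the edgeR fit were run on simulated counts with known changes in randomly chosen genes. Beyond those changes the simulated libraries differed only by depth and random draws. They therefore cannot show how the rule performs with 1 real library a group. Members named are the stalk proteins and Rpsa, the 5 most abundant, the ends of each comparison in B and Cd4 cells, those past the threshold between lineages, and paralogue forms; Rpl27 and Rpl31 were named beyond this rule after their values were seen. Some genes that the rule takes in, and some gate markers, are not reported here. Members, lists and tests were chosen with earlier results of these data known. Start sequences are from RefSeq (GRCm38.p6) and positions from GENCODE (GRCm38), with all 86 members matched.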

Additional observations from a re-analysis of the deposited data

Results flagged for a closer look

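Differences between libraries ran in opposite directions in pairs of lineages, as percentage points of ribosomal protein share standardised over depth; with 1 library a group none of these differences between lineages was tested. For T1 minus C, B less Cd4 cells came to 3.34 points, Cd4 less Cd8b1 cells to -9.07 and Cd4 less Trdc cells to -3.75. For T3 minus C, B cells less Cd4, Cd8b1 and Trdc cells came to -4.71, -9.59 and -6.84 points. For T3 minus T1 the same 3 came to -7.52, -1.85 and -5.43 points. The B-cell terms change sign under other filters, as given under the processing.

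Signal also lay in data that the comparisons did not use. Barcodes over 20% mitochondrial UMIs held a ribosomal protein share of 8.84% in T1 and 7.90% in T3, against 6.22% in C. Symbols of ribosomal protein genes with -ps, 9 in number and left out of the members, reached 240 CPM as a sum in T1 and 231 CPM as a sum in T3, where C had 203 CPM.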

How the results depend on the processing

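No paired analysis was possible because each group was 1 library, whose replicate number pairs nothing; the lineage fits had the library as a block instead. The cause of each change below was not tested.

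Values here are standardised share differences in percentage points. For B cells, T1 minus C (0.47) was 0.622 with a 10% mitochondrial filter, 1.23 with none, 0.552 with the stricter gate, 1.55 with bins weighted by barcodes and, with the sign turned, -0.119 without the top 1% of barcodes. T3 minus C in B cells (-0.98) was -2.46 at 10%, -0.290 with the stricter gate, -1.10 without the top 1%, -1.24 without mitochondrial, haemoglobin and immunoglobulin UMIs in the denominator and -1.33 without barcodes of over 1 haemoglobin UMI; it turned to 1.04 with no mitochondrial filter and 0.0838 with weighted bins. T3 minus T1 in B cells (-0.86) turned to 0.252 with no mitochondrial filter and was -2.54 at 10%, -0.301 stricter, -0.0292 without the top 1%, -1.27 with the other denominator, -0.270 without haemoglobin barcodes and -1.20 weighted. In Cd4 cells, T1 minus C was -1.34 with no filter, -2.05 with the stricter gate, -3.06 with the other denominator and -2.76 weighted, and T3 minus C was 3.09 at 10%, 4.39 with no filter, 2.996 stricter, 4.003 with the other denominator, 4.18 without haemoglobin barcodes and 5.04 weighted. T3 minus T1 in Cd4 cells was 5.92 at 10%, 5.73 with no filter, 6.99 stricter, 7.38 with the other denominator, 5.85 without haemoglobin barcodes and 7.23 weighted. In Cd8b1 cells, T1 minus C was 6.33 at 10% and 6.45 with the other denominator, and T3 minus C was 7.22 at 10%, 7.49 stricter, 9.39 with the other denominator, 8.83 without haemoglobin barcodes and 8.11 weighted. T3 minus T1 in Cd8b1 cells was 0.891 at 10%, 1.32 stricter, 0.880 without the top 1%, 1.36 with the other denominator and 1.27 weighted. In Trdc cells, T1 minus C was 1.39 stricter and 1.10 weighted, and T3 minus C was 6.16 with the other denominator.

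Shares in percent are given for C, T1 and T3 in turn. With the 10% mitochondrial filter they were 32.7, 36.7 and 32.96 in B cells, 33.4, 31.2 and 37.3 in Cd4 cells and 36.01, 43.3 and 43.7 in Cd8b1 cells, with 30.1, 31.8 and 35.8 in Trdc cells, 8.60, 9.19 and 19.8 in plasma cells and 22.02, 23.8 and 9.08 in myeloid cells. With no mitochondrial filter they were 31.4, 34.1 and 30.8 in B cells, 32.6, 30.7 and 35.7 in Cd4 cells and 35.5, 42.6 and 42.2 in Cd8b1 cells, with 29.7, 30.8 and 34.8 in Trdc cells, 8.37, 9.06 and 19.8 in plasma cells and 21.004, 23.03 and 9.03 in myeloid cells. With the stricter gate they were 32.4, 35.6 and 32.8 in B cells, 30.9, 29.6 and 35.8 in Cd4 cells and 36.1, 43.4 and 44.4 in Cd8b1 cells, with 29.4, 30.9 and 35.2 in Trdc cells, 8.70, 9.37 and 19.9 in plasma cells and 20.97, 23.95 and 8.73 in myeloid cells. Without the top 1% of barcodes they were 32.9, 35.6 and 31.9 in B cells, 33.3, 30.9 and 36.7 in Cd4 cells and 35.7, 42.9 and 43.1 in Cd8b1 cells, with 29.98, 31.2 and 35.4 in Trdc cells, 7.79, 8.80 and 17.9 in plasma cells and 21.8, 23.2 and 4.46 in myeloid cells. With the other denominator they were 35.6, 38.5 and 34.4 in B cells, 35.004, 32.6 and 38.8 in Cd4 cells and 37.6, 45.1 and 46.1 in Cd8b1 cells, with 31.6, 32.96 and 37.7 in Trdc cells, 22.6, 24.98 and 28.5 in plasma cells and 22.6, 24.05 and 9.26 in myeloid cells. Without paralogue forms and Rps19bp1 they were 31.9, 35.1 and 31.6 in B cells, 32.7, 30.6 and 36.3 in Cd4 cells and 35.4, 42.6 and 42.998 in Cd8b1 cells, with 29.7, 30.99 and 35.2 in Trdc cells, 8.27, 8.94 and 19.5 in plasma cells and 21.6, 23.02 and 8.92 in myeloid cells. Without haemoglobin barcodes they were 32.3, 35.4 and 31.98 in B cells, 32.9, 30.8 and 36.4 in Cd4 cells and 35.7, 42.9 and 43.5 in Cd8b1 cells, with 29.98, 31.2 and 32.7 in Trdc cells, 8.42 and 9.12 (C and T1) in plasma cells and 21.8, 23.2 and 6.90 in myeloid cells. As the mean over barcodes they were 31.7, 33.3 and 27.6 in B cells, 31.8, 29.4 and 33.8 in Cd4 cells and 33.9, 41.004 and 40.7 in Cd8b1 cells, with 29.2, 29.4 and 33.7 in Trdc cells, 7.61, 9.17 and 18.9 in plasma cells and 18.3, 20.7 and 5.73 in myeloid cells. At 4000 to 8000 UMIs they were 39.2, 37.6 and 41.2 in Cd4 cells and 42.5, 46.4 and 43.9 in Cd8b1 cells with at least 2 naive-marker UMIs, and 26.96, 25.5 and 30.1 in Cd4 cells and 29.02, 30.1 and 34.4 in Cd8b1 cells with 0. Among Cd8b1 cells T3 lay above T1 as reported but below it with no mitochondrial filter, as the mean over barcodes and among barcodes with at least 2 naive-marker UMIs; B cells of T3 lay below C as reported but above it with the 10% filter and the stricter gate.

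Counts of members past the rule of size moved as follows. For T3 against C, B cells had 0 at 2-fold and 0 at 2000 to 8000 UMIs; Cd4 cells had 1 with 20 UMIs asked for, 2 with TMM, 1 with median-ratio factors, 1 at 10%, 3 with the stricter gate and 3 at 2000 to 8000 UMIs; Cd8b1 cells had 0 at 2-fold, 9 with TMM, 8 with median-ratio factors, 5 at 2000 to 8000 UMIs and 0 among naive-marker barcodes; Trdc cells had 0 at 2-fold, 2 with 20 UMIs, 8 with TMM, 8 with median-ratio factors, 2 stricter, 3 at 2000 to 8000 UMIs and 0 without haemoglobin barcodes. For T1 against C, Cd4 cells had 1 among naive-marker barcodes, Cd8b1 cells 3 with TMM and 3 with median-ratio factors, and Trdc cells 0 at 2-fold, 2 at 10%, 2 stricter and 0 at 2000 to 8000 UMIs. For T3 against T1, B cells had 0 at 2-fold, 2 with TMM, 2 with median-ratio factors and 0 at 2000 to 8000 UMIs; Cd4 cells, with 6 as reported, had 0 at 2-fold and 2 among naive-marker barcodes. Cd8b1 cells had 1 at 2000 to 8000 UMIs, and Trdc cells 0 at 2-fold, 4 with median-ratio factors, 1 at 10%, 1 stricter and 0 without haemoglobin barcodes. On the scale of ribosomal protein UMIs, B cells had 0 at 2-fold and 0 at 2000 to 8000 UMIs for T3 against C, and 1 without haemoglobin barcodes for T3 against T1. Cd4 cells had 1 with 20 UMIs and 1 at 2000 to 8000 UMIs for T3 against C, and 1 stricter and 1 at 2000 to 8000 UMIs for T3 against T1. Cd8b1 cells had 0 at 2-fold, 2 with 20 UMIs and 2 at 10% for T1 against C, and 1 at 2-fold for T3 against C. Trdc cells had 0 at 2-fold and 1 at 2000 to 8000 UMIs for T1 against C. For T3 against C they had 2 with 20 UMIs and 0 at 10%, with the stricter gate, at 2000 to 8000 UMIs and without haemoglobin barcodes.

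For lineages by edgeR, members called in B against Cd4 cells were 1 without the library block (5 at an unadjusted p under 0.05), 7 without the filter, and 2 to 10 leaving out a library. Cd8b1 against Cd4 gave 0 without the block (64 unadjusted), 21 in DESeq2, 18 with library sizes alone, 69 without the filter, 63 stricter, and 0 to 7 leaving out a library. Trdc against Cd8b1 gave 0 without the block (76 unadjusted), 33 in DESeq2, and 23 to 60 leaving out a library. The naive-marker alternatives were chosen after the data had been seen. In T3, depth and the number of cells left 1 depth bin in which Trdc cells could be compared with those of C.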
